A study of Mus musculus with 14 samples.

Results

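The interferon-inducible GTPases are GTP-hydrolysing proteins of cell-autonomous immunity, and 10 of their genes were examined here in mouse liver: Gbp2, Gbp3, Gbp4, Gbp6, Gbp7, Irgm1, Igtp, Iigp1, Ifi47 and Tgtp1. Their probes were found by gene name or current symbol among the non-control probes of the arrays, with Ifi1 read as Irgm1 and Tgtp as Tgtp1. This gave 13 probes for the 10 genes, out of 36096 genes with a probe, and all 10 genes were among the 32675 that passed the filter on dim probes. The genes were chosen by their log2 ratios of Cy3 to Cy5 over the 3 diets. Their differences between diets are therefore a description and carry no p-values.

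The livers came from male C57BL/6 mice, 1 year old and fed ad libitum. Resveratrol mice (n = 4) received 0.04% resveratrol, a polyphenol made by plants, in the high-calorie diet. High-calorie mice (n = 5) ate a form of AIN-93G in which 60% of the calories came from fat, and standard-diet mice (n = 5) ate AIN-93G, a purified rodent diet. Each liver's RNA carried Cy3 and shared its array with a Cy5-labelled pool of 5 standard-diet livers, with 1 array per mouse and no dye swap. The value used below is the log2 ratio of Cy3 to Cy5, mouse over pool.

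Both GTPase families are induced by interferon-gamma, which signals through its receptor chains Ifngr1 and Ifngr2 to transcription factors such as Irf1, and many members also respond to type I interferon. The guanylate-binding proteins (Gbp genes) are large GTPases that assemble on pathogen vacuoles and on bacteria inside cells. The immunity-related GTPases of mice comprise regulators, such as Irgm1, Igtp and Irgm2, which sit on the cell's own membranes and keep the others inactive, and effectors, such as Iigp1, Ifi47 and Tgtp1, which load onto the vacuole of Toxoplasma.

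Between 82.0% and 92.4% of probes were well above background in Cy3 in the resveratrol mice, between 83.6% and 91.8% in the high-calorie mice and between 77.9% and 88.3% in the standard-diet mice. The number of arrays limits the precision, and the labels do not say whether animals shared a cage or litter. All 10 hepatocyte markers measured were well above background on all 14 arrays. Without a dye swap the zero of the ratio may carry dye effects. Alb, the albumin gene, had a log2 ratio of 1.36 to 2.40 in the standard-diet mice although the pool was standard-diet liver too. The cause of that offset was not tested. Because of such offsets only differences between arrays are read. Resveratrol replicate 4 and standard-diet replicate 5 had the brightest arrays of their diets, and several results below are also given without them.

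The promoters are shown because they hold the letters that interferon-activated factors are known to bind. A gamma-activated site (GAS), an element of interferon-gamma-induced promoters, was searched as TTCNNNGAA, which reads the same on both strands. The core of the interferon-stimulated response element (ISRE), bound by proteins of the Irf family, was searched as GAAA, any 2 bases and GAAA on both strands, and overlapping matches were allowed. The 6 windows with a match run from 110 bases before to 10 bases after the RefSeq start of the gene (build GRCm38.p6), 5′ to 3′ on the gene's strand, with the matches in capitals.
Gbp2 (chr3:142620553-142620672, plus strand): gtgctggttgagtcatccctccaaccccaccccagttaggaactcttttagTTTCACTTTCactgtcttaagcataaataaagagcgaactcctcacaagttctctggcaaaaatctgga
Gbp3 (chr3:142559934-142560053, plus strand): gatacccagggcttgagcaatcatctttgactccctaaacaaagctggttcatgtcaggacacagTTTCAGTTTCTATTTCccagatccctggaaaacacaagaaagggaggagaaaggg
Gbp7 (chr3:142530226-142530345, plus strand): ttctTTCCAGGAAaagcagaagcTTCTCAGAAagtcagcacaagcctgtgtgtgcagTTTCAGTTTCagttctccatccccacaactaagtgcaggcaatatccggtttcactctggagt
Igtp (chr11:58199446-58199565, plus strand): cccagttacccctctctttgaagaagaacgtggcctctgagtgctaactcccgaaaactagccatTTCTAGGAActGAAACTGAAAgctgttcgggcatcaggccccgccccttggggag
Irgm1 (chr11:48871411-48871530, minus strand): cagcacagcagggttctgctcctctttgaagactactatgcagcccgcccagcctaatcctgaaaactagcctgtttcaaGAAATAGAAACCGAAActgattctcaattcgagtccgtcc
Tgtp1 (chr11:48992237-48992356, minus strand): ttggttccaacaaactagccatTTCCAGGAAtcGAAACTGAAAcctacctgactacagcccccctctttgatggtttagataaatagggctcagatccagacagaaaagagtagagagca

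The RefSeq promoter table held 7 of the 10 genes, and windows of 300 bases were searched. The ISRE core occurred in 6 of the 7 genes and in 3.44% of all 32851 promoters of that length. The GAS occurred in 3 of the 7 (Gbp7, Igtp and Tgtp1) and in 8.3% of all promoters. Those 3 genes held both motifs, as did 0.454% of all promoters. In Igtp and Tgtp1 the GAS stands directly upstream of the ISRE core, with 2 bases between them. The Ifi47 window and a second Gbp3 start held neither set of letters. A match describes the letters and is not a measured binding site.

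The genes are clustered in the genome. In the order of protein-coding genes, Gbp7 and Gbp3 are neighbours on chromosome 3, followed by Gbp2b and Gbp2. Gbp4 and Gbp6 flank Gbp10 on chromosome 5. Igtp lies next to Irgm2 on chromosome 11, which also holds Irgm1, Tgtp1 and Ifi47, the last beside Tgtp2, while Iigp1 lies on chromosome 18. Relatives within a cluster resemble each other, so a probe may also have taken up transcripts of another member. Tgtp1 and Tgtp2 are near-identical copies, and the values for Tgtp1 cannot be assigned to one of them.

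In the high-calorie mice 8 of the 10 GTPases had a higher mean than in the standard-diet mice. The fit over all genes (limma, Benjamini-Hochberg adjustment, adjusted p under 0.05) called 5 of them higher, namely Gbp3, Gbp6, Gbp7, Igtp and Irgm1, and none lower, where 5.37% of all genes tested were called higher and 4.07% lower (9.44% in either direction). The median difference was 0.36 on the log2 scale over the 10 genes and -0.00213 over all genes. For Gbp3, Gbp6, Gbp7 and Igtp every high-calorie mouse measured lay above every standard-diet mouse, as for 5.15% of all genes, and no gene of the 10 lay wholly below, as for 5.18%. The rule that chose the genes used this contrast, so nothing is read from these shares. In whole liver, more cells of a type and more RNA per cell cannot be told apart.

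In the resveratrol mice 8 of the 10 genes had a lower mean than in the high-calorie mice. The fit called Gbp3 and Gbp6 lower and none higher, where 2.22% of all genes were called lower and 3.16% higher (5.39% in either direction). The median difference was -0.19 over the 10 genes and -0.00680 over all genes. Every resveratrol mouse lay below every high-calorie mouse measured for Gbp3, Gbp6, Igtp and Irgm1, as for 6.15% of all genes, and above for Gbp2, as for 6.82%. Without resveratrol replicate 4 the fit called 4 genes lower, with Igtp and Irgm1 added, where 2.6% of all genes were called lower and 3.66% higher. The rule used this contrast too. It shares the high-calorie arrays with the previous one, so the values of both are given side by side.

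The split of calls over all genes depends on the scaling. With median centring in place of loess, 31 genes were higher and 89 lower in the resveratrol than in the high-calorie mice, in place of 1033 and 727. For high-calorie against standard-diet mice the counts were 2396 higher and 636 lower, in place of 1754 and 1329. Gbp3 and Gbp6 were called in both comparisons with either scaling.

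**Figure D1:**
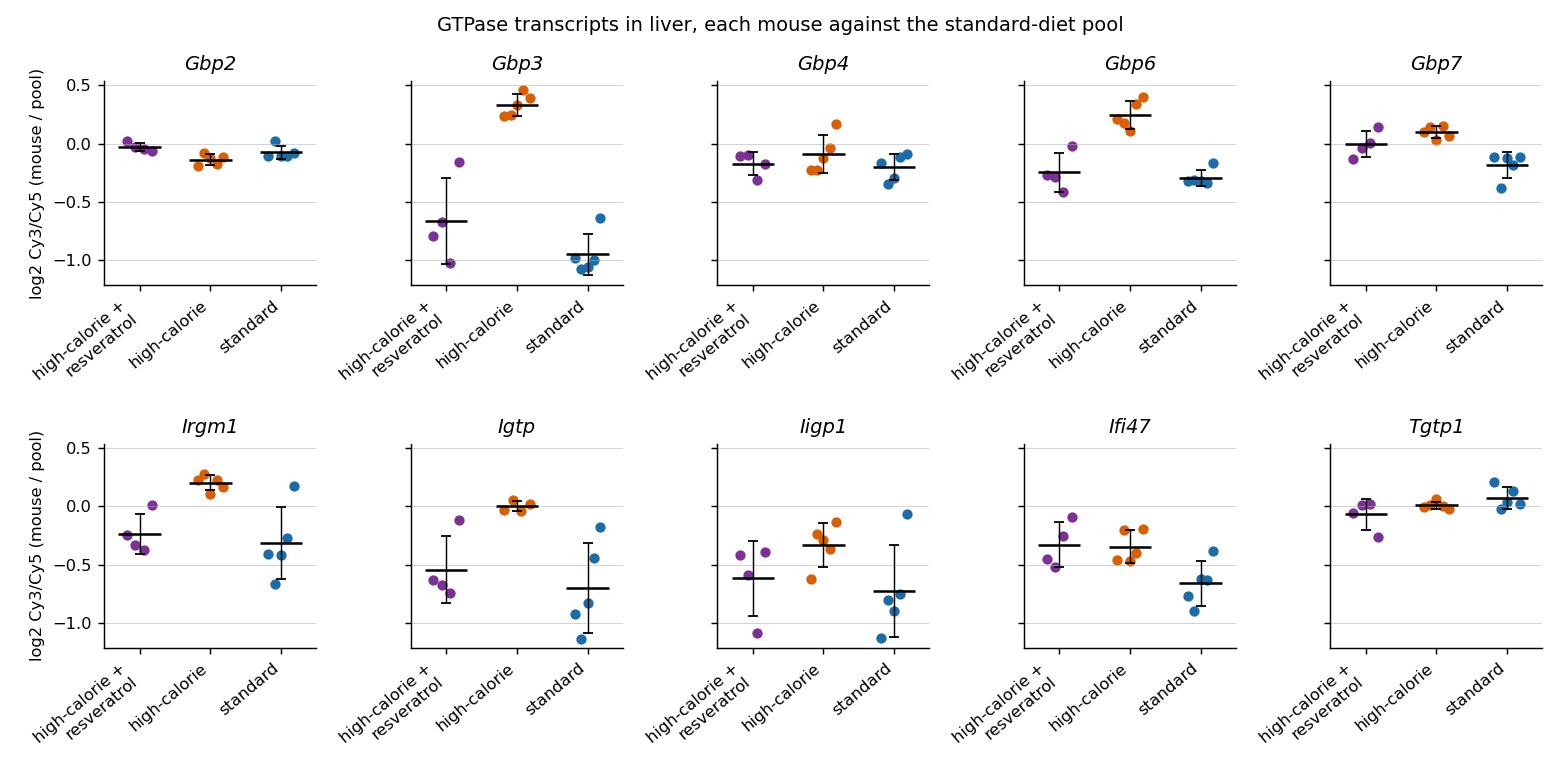
Log2 ratio of Cy3 to Cy5 (mouse over the standard-diet pool) of the 10 GTPase genes, with 1 point per mouse and the mean and SD of the resveratrol, high-calorie and standard-diet mice from left to right. The high-calorie points of Gbp3 and Gbp6 lie above all points of the other diets, and those of Tgtp1 lie within the range of the standard-diet points.

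Gbp3 had the widest differences of the 10 genes in the comparisons that involve the high-calorie mice. Its log2 ratio was -0.79, -0.68, -1.03 and -0.16 in the resveratrol mice, 0.24, 0.24, 0.33, 0.46 and 0.39 in the high-calorie mice, and -0.98, -1.07, -1.06, -0.99 and -0.64 in the standard-diet mice. The high-calorie mice stood above all others, and the highest value of each other diet came from its brightest array. The high-calorie mean lay 1.28 ± 0.13 (SE, log2) above the standard-diet mean, a ratio of 2.43. The resveratrol mean differed from the high-calorie mean by -0.996 ± 0.14, a ratio of 0.501. The size depends on the background treatment, since the diet difference was 2.19 from the scanner's processed signals and 0.42 with no background correction, and the resveratrol difference was -1.45 and -0.35.

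Gbp6 had the same order of diets with smaller differences. It stood at -0.27, -0.28, -0.42 and -0.02 in the resveratrol mice, at 0.21, 0.18, 0.11, 0.34 and 0.40 in the high-calorie mice, and at -0.32, -0.32, -0.32, -0.34 and -0.17 in the standard-diet mice. The high-calorie mice did not overlap with either other diet. Their mean lay 0.54 ± 0.07 above the standard-diet mean, and the resveratrol mean differed from theirs by -0.49 ± 0.08. Over the alternatives these values ran from 0.17 (no background correction) to 0.84 (processed signals) and from -0.16 to -0.71 under the same settings.

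Gbp7, whose protein binds subunits of the phagocyte NADPH oxidase in mouse macrophages, was called higher in the high-calorie than in the standard-diet mice and was not called between resveratrol and high-calorie mice. Its ratios were -0.13, -0.04, 0.01 and 0.14 in the resveratrol mice, 0.10, 0.15, 0.03, 0.15 and 0.06 in the high-calorie mice, and -0.12, -0.38, -0.12, -0.18 and -0.11 in the standard-diet mice. The resveratrol mice overlapped with both other diets. The differences were 0.28 ± 0.06 for high-calorie against standard-diet mice and -0.10 ± 0.06 for resveratrol against high-calorie mice. The probe was dim, well above background on 12 of 14 arrays, and with median centring these differences were 0.03 and 0.04. The arrays above background were 3 of 5 in the standard-diet mice and all in the other diets.

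Gbp2 and Gbp4 differed little between the diets. Gbp2 had ratios of -0.06 to 0.02 in the resveratrol mice, -0.19 to -0.08 in the high-calorie mice and -0.11 to 0.03 in the standard-diet mice. Its high-calorie mean differed by -0.06 ± 0.04 from the standard-diet mean, and its resveratrol mean by 0.11 ± 0.04 from the high-calorie mean. Those signs turned in the Cy3 channel alone, to 0.22 and -0.22, and the first also with median centring, to 0.12. In the Cy5 channel, which held the pool, the same Gbp2 differences were 0.28 and -0.33. Gbp4, well above background on 11 of 14 arrays, had the corresponding differences 0.11 ± 0.08 and -0.09 ± 0.08, which turned to -0.06 and 0.03 with median centring. Those 11 arrays were 2 of 5 in the standard-diet mice and all in the other diets.

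Irgm1, a regulator of the Golgi membrane that is needed for normal autophagy in mice, was called higher in the high-calorie than in the standard-diet mice. Its brightest probe gave -0.25, -0.33, -0.37 and 0.01 in the resveratrol mice, 0.22, 0.28, 0.11, 0.23 and 0.17 in the high-calorie mice, and -0.41, -0.66, -0.42, -0.27 and 0.18 in the standard-diet mice. All resveratrol mice lay below all high-calorie mice, while standard-diet replicate 5 lay within the high-calorie range. The differences were 0.52 ± 0.12 for high-calorie against standard-diet mice and -0.44 ± 0.13 for resveratrol against high-calorie mice.

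Igtp, also called Irgm3, is a regulator of the endoplasmic reticulum. Its ratios were -0.63, -0.68, -0.74 and -0.11 in the resveratrol mice, -0.03, 0.06, -0.04 and 0.02 in 4 high-calorie mice, and -0.92, -1.13, -0.83, -0.44 and -0.17 in the standard-diet mice. The spot of high-calorie replicate 3 carried the scanner's outlier flag and was left out of the fit. The high-calorie mice spread little (SD 0.045, n = 4) and the standard-diet mice widely (SD 0.39, n = 5). The differences were 0.70 ± 0.17 for high-calorie against standard-diet mice, called, and -0.54 ± 0.18 for resveratrol against high-calorie mice, not called. The first call was lost when any 1 of standard-diet replicates 1 and 3 or high-calorie replicates 1, 2, 4 and 5 was left out.

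**Figure D2:**
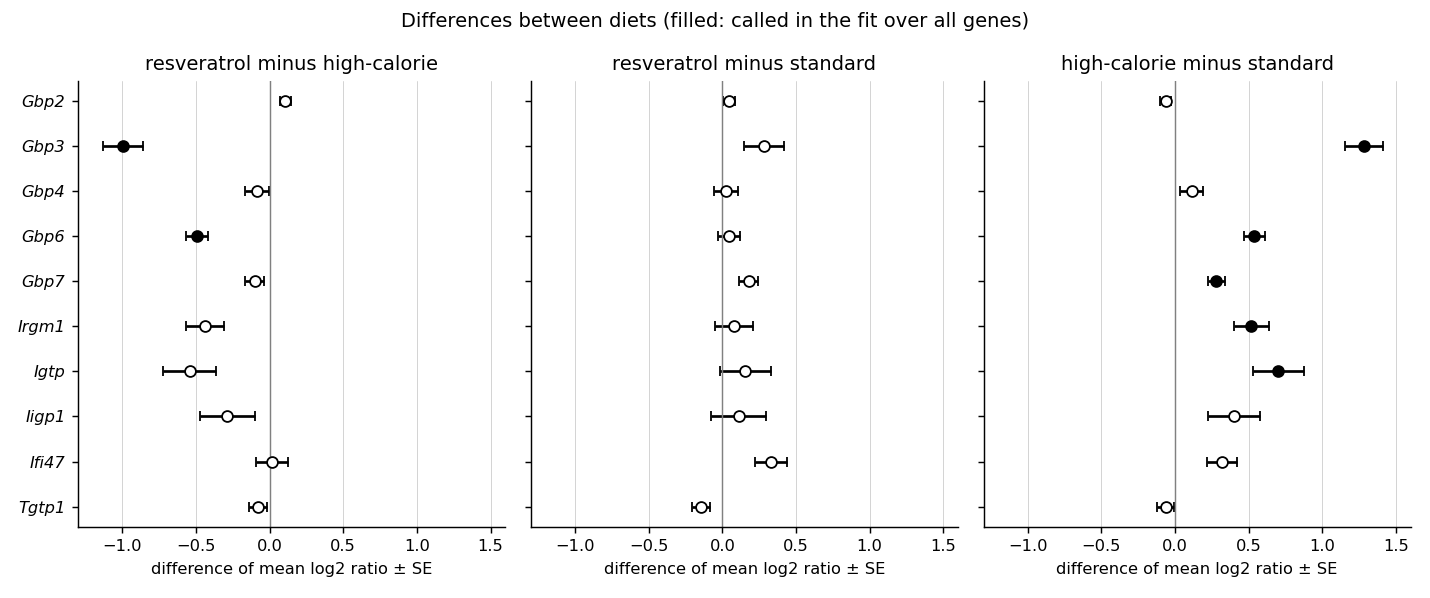
Log2 difference between diets (points) with its SE (bars) for the 10 genes, in 3 panels for resveratrol minus high-calorie, resveratrol minus standard diet and high-calorie minus standard diet, with filled points for genes called at an adjusted p under 0.05. Gbp3 is farthest from 0 in the panels that involve the high-calorie mice, at -0.996 and 1.28, and no point is filled for resveratrol against standard diet.

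By the brightest probe of each, the effectors overlapped between diets. Iigp1, the effector also called Irga6, had ratios of -0.41, -0.59, -1.08 and -0.39 in the resveratrol mice, -0.63, -0.24, -0.29, -0.36 and -0.13 in the high-calorie mice, and -1.13, -0.80, -0.89, -0.75 and -0.07 in the standard-diet mice. Standard-diet replicate 5 was the highest of all 14 mice, although the standard-diet mean was the lowest. The differences were 0.40 ± 0.18 for high-calorie against standard-diet mice and -0.29 ± 0.19 for resveratrol against high-calorie mice. Without standard-diet replicate 5 the first was 0.56 and was called. In that fit 18.3% of all genes were called in either direction, in place of 9.44%.

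Ifi47, also called Irgd, was the effector that stood no lower in the resveratrol than in the high-calorie mice. Its ratios were -0.45, -0.52, -0.26 and -0.09 in the resveratrol mice, -0.46, -0.20, -0.47, -0.40 and -0.19 in the high-calorie mice, and -0.77, -0.90, -0.62, -0.63 and -0.38 in the standard-diet mice. Both high-calorie groups stood above most standard-diet mice. The differences were 0.02 ± 0.11 for resveratrol against high-calorie, 0.33 ± 0.11 for resveratrol against standard diet and 0.32 ± 0.10 for high-calorie against standard diet, none of them called. Without standard-diet replicate 5 the last was 0.39 and was called, where 18.3% of all genes were called in place of 9.44%.

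Tgtp1, the effector also called Irgb6, had an order of diets that depended on the probe. Its brightest probe, highest on average in the standard-diet mice, gave -0.26 to 0.02 in the resveratrol mice, -0.02 to 0.06 in the high-calorie mice and -0.03 to 0.21 in the standard-diet mice. The differences were -0.08 ± 0.06 for resveratrol against high-calorie and -0.06 ± 0.06 for high-calorie against standard diet. The second turned to 0.16 in the Cy3 channel alone, where the Cy5 channel, which held the pool, gave 0.23. The second probe had its lowest mean in the standard-diet mice, with -0.50 ± 0.13 in the resveratrol mice (SD, n = 4), -0.44 ± 0.08 in the high-calorie mice (n = 5) and -0.66 ± 0.04 in the standard-diet mice (n = 4).

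Between the resveratrol and the standard-diet mice none of the 10 genes was called by limma, where 0.125% of all genes were called higher and 0.0888% lower (0.214% in either direction). At an unadjusted p under 0.05 the counts were 2 higher and 1 lower, where 10.6% of all genes passed in either direction. The resveratrol mean was the higher in 9 genes, with a median difference of 0.10. The mice overlapped in all 10 genes, where 1.09% of all genes had every resveratrol mouse above every standard-diet mouse and 1.85% below. Gbp3 kept a difference of 0.29 ± 0.14, which was 0.12 without resveratrol replicate 4. For 7 genes (Gbp3, Gbp4, Gbp6, Gbp7, Igtp, Iigp1 and Irgm1) the lowest mean was that of the standard diet, the middle that of resveratrol and the highest that of the high-calorie diet. The lower neighbours in that order overlapped in every gene, and the upper neighbours did not for Gbp3, Gbp6, Igtp and Irgm1.

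Probes of the same gene did not all behave alike. The 3 probes of Irgm1 gave high-calorie minus standard-diet differences of 0.52 (the brightest, used above), 0.79 and 0.07, and resveratrol minus high-calorie differences of -0.44, -0.66 and -0.0049. The third was well above background on 11 of 14 arrays (2 of 5 in the standard-diet mice and all in the other diets), the others on all 14. The second probe of Tgtp1 gave 0.22 for high-calorie minus standard diet, with no overlap, where the brighter gave -0.06. The Irgm1 and Tgtp1 values thus depend on which probe is read.

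**Figure D3:**
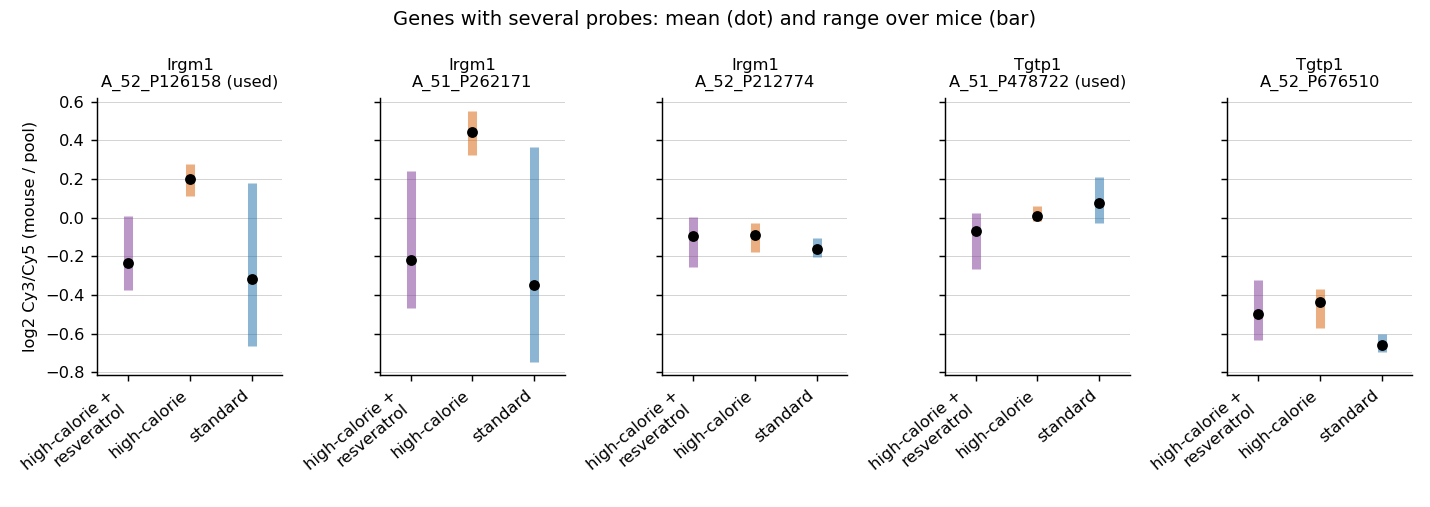
Log2 ratio of Cy3 to Cy5 for the 3 probes of Irgm1 and the 2 probes of Tgtp1, with the mean (dot) and range over mice (bar) for the resveratrol, high-calorie and standard-diet mice. Of the Irgm1 probes 2 stand higher in the high-calorie mice and the dimmest, with a difference of 0.07, does not separate the diets.

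In the Cy5 channel, where every array held the same pool, the 10 genes had a median difference of -0.05 for resveratrol against high-calorie mice (from -0.33 to 0.04) and of 0.02 for high-calorie against standard-diet mice (from -0.12 to 0.28), and no gene separated the diets. In Cy3 alone the medians were -0.30 and 0.41.

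Arrays differed in brightness, in slide number series and in the day on which their image was processed, which the design did not balance. All 4 resveratrol arrays, 2 high-calorie and 3 standard-diet arrays were processed on the first day, the others on the second. The slide series were set here by cutting the sorted slide numbers at their widest gap, and are not a batch named in the labels. Slide series 1 held 3 resveratrol, 2 high-calorie and 0 standard-diet arrays, and series 2 held 1, 3 and 5. Resveratrol and standard-diet mice thus shared a series through 1 resveratrol array, and diet and series can hardly be told apart there. Within the first day the Gbp3 difference was -1.01 for resveratrol against high-calorie mice and 1.36 for high-calorie against standard-diet mice, and within the second day that diet difference was 1.18. For Irgm1 the values were -0.46, 0.59 and 0.43. By slide number, within the series that held both diets, the high-calorie minus standard-diet difference was 1.27 for Gbp3, 0.52 for Gbp6, 0.74 for Igtp and 0.50 for Irgm1. With array brightness as a covariate those values were 1.17, 0.48, 0.49 and 0.38, and of the 10 genes Gbp3 and Gbp6 were called, where 1.68% of all genes were called higher.

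Variation among mice of one diet was shared by part of the genes. Over deviations from the diet mean on 14 arrays, which share each array's brightness and pool, 30 of the 45 gene pairs had a positive Pearson correlation, with a median of 0.396. Igtp and Irgm1 correlated at 0.944 and Gbp3 and Gbp6 at 0.857. Gbp2 and Tgtp1 ran against the mean of the other 9 genes, at -0.233 and -0.518. The largest mean deviations were 0.251 in standard-diet replicate 5 and 0.179 in resveratrol replicate 4, the brightest arrays of their diets (median net Cy3 85.6 and 100.2). The dimmest standard-diet array, replicate 2 (48.6), had -0.158, whereas the brightest of all, high-calorie replicate 5 (114.4), had 0.0762. The part of brightness in the diet differences was not tested beyond the covariate above.

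**Figure D4:**
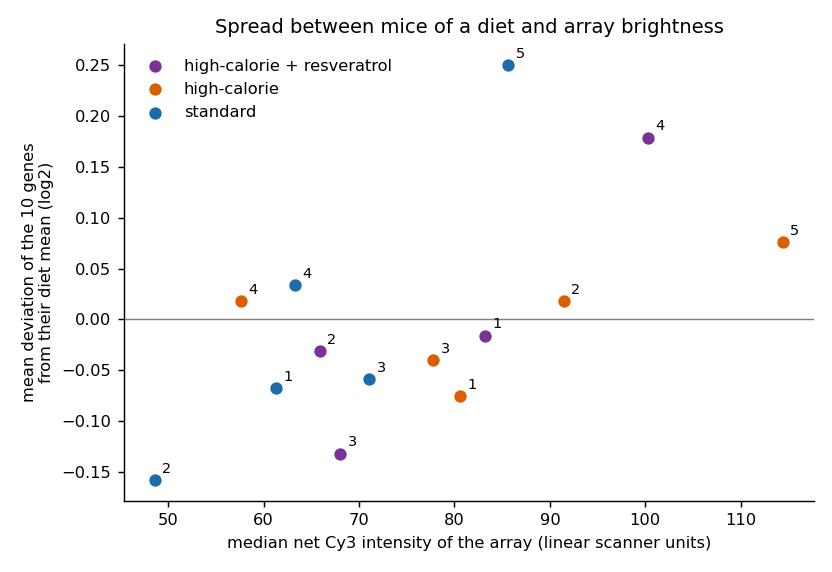
Mean deviation of the 10 genes from their diet's mean (log2, vertical axis) against the array's median net Cy3 intensity (horizontal axis), 1 point per mouse labelled with its replicate number. Standard-diet replicate 5 (0.251) and resveratrol replicate 4 (0.179) lie highest and are the brightest arrays of their diets.

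The genes most like the 10 were ranked by Pearson correlation over 14 arrays, with deviations from the diet mean in place of log2 ratios. Each gene's deviations were set against the mean deviation of the 10. The ranking thus describes variation between mice of a diet, where deviations also share each array's brightness. They were Ifih1 (0.945), the RNA sensor MDA5, Rtp4 (0.943), Rpe (0.935), AI987944 (0.932), Slc26a11 (0.932), Apol9b (0.930), Chmp2b (0.929) and Crbn (0.924). Rpe encodes a pentose phosphate epimerase, Chmp2b a subunit of the membrane-scission complex ESCRT-III and Crbn the substrate receptor cereblon. With median centring 5 of the 8 remained.

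Of 16 other GTPases, 10 were tested, and limma called 2 higher and none lower in high-calorie against standard-diet mice. The list held Gvin and Mx genes besides relatives from both families. Irgm2, the third regulator, rose by 1.08 ± 0.30 (adjusted p = 0.0402), and Gvin1, a very large inducible GTPase, rose by 0.43 ± 0.11 (adjusted p = 0.0308). The Irgm2 call was lost in 17 alternatives, 8 of which left out a single mouse, and the Gvin1 call was lost in 15. None was called between resveratrol and high-calorie mice, and 5 were lower at an unadjusted p under 0.05, where 22.2% of all genes passed in either direction. Irgm2 differed by -0.85 ± 0.32 (adjusted p = 0.137), with all resveratrol mice below all high-calorie mice, and Gbp9 by -0.19 ± 0.06 (adjusted p = 0.0676).

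In interferon-gamma signalling 14 genes were tested, and 4 rose and 1 fell in high-calorie against standard-diet mice. Irf1 rose by 0.58 ± 0.10 (adjusted p = 0.00371) and the receptor chain Ifngr2 by 0.29 ± 0.06 (adjusted p = 0.0123). The other chain Ifngr1, named after its values were seen, rose by 0.39 ± 0.11 (adjusted p = 0.0389). Ifng, the cytokine itself, fell by 0.22 on the log2 scale (adjusted p = 0.0225). In resveratrol against high-calorie mice only Ifng was called, 0.22 ± 0.06 higher (adjusted p = 0.0381), while Irf1 differed by -0.15 (adjusted p = 0.428). The Ifng calls were lost in 13 and 18 alternatives.

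Of 17 other interferon-gamma targets tested, 5 rose and 1 fell in high-calorie against standard-diet mice. Ubd, the ubiquitin-like protein FAT10, rose by 0.51 ± 0.09 (adjusted p = 0.00418), the chemokine Cxcl9 by 0.51 ± 0.12 (adjusted p = 0.0172) and the immunoproteasome subunit Psmb9 by 0.56 ± 0.13 (adjusted p = 0.0196). B2m and Cxcl10, named after their values were seen, rose by 0.39 ± 0.09 (adjusted p = 0.0208) and 0.66 ± 0.17 (adjusted p = 0.0277). The Cxcl10 probe was dim, well above background on 10 of 14 arrays. Ido1, a tryptophan-degrading enzyme, fell by 0.19 on the log2 scale (adjusted p = 0.0162), a difference that was 0.00373 with median centring. It was also the 1 target called in resveratrol against high-calorie mice, 0.22 ± 0.05 higher (adjusted p = 0.0196).

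Type I interferon targets had the medians farthest from 0 among the 7 pathway lists in the comparisons that involve the high-calorie mice. The lists were chosen with results of these arrays known. Of 20 tested, 14 rose and none fell in high-calorie against standard-diet mice (median 0.49), and none rose and 10 fell in resveratrol against high-calorie mice (median -0.44). Ifit3, which helps Ifit1 bind foreign RNA, differed by -0.88 ± 0.14 (adjusted p = 0.00711) in resveratrol against high-calorie mice and by 1.12 ± 0.13 (adjusted p = 0.000301) in high-calorie against standard-diet mice. For Ifit1 the values were -0.79 ± 0.12 (adjusted p = 0.00577) and 0.90 ± 0.11 (adjusted p = 0.000425). In type I signalling 14 genes were tested. Usp18, the ISG15 protease that restrains the type I receptor, differed by -0.9996 ± 0.13 (adjusted p = 0.00315) and 1.00 ± 0.12 (adjusted p = 0.000378) in the same order. Ifih1 also rose on the high-calorie diet, by 0.66 ± 0.14 (adjusted p = 0.00953), and Irf3 fell by 0.23 on the log2 scale (adjusted p = 0.0137), which was -0.02 with median centring.

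Among partners of the GTPases in autophagy and cell death, few were called. Of 15 autophagy and vacuole genes, Atg12, a conjugation factor, rose by 0.47 ± 0.08 in high-calorie against standard-diet mice (adjusted p = 0.00447) and was the 1 called. In resveratrol against high-calorie mice limma called none, with 4 lower at an unadjusted p under 0.05, where 22.2% of all genes passed in either direction. Of 7 inflammasome genes, the pore-forming Gsdmd fell by 0.35 on the log2 scale in high-calorie against standard-diet mice (adjusted p = 0.0445), a call lost in 19 alternatives. Limma called none in resveratrol against high-calorie mice, with 1 higher at an unadjusted p under 0.05, against the same share of all genes. Over the 95 genes of all lists, none was called between resveratrol and standard-diet mice, with 9 higher and 2 lower at an unadjusted p under 0.05, where 10.6% of all genes passed.

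**Figure D5:**
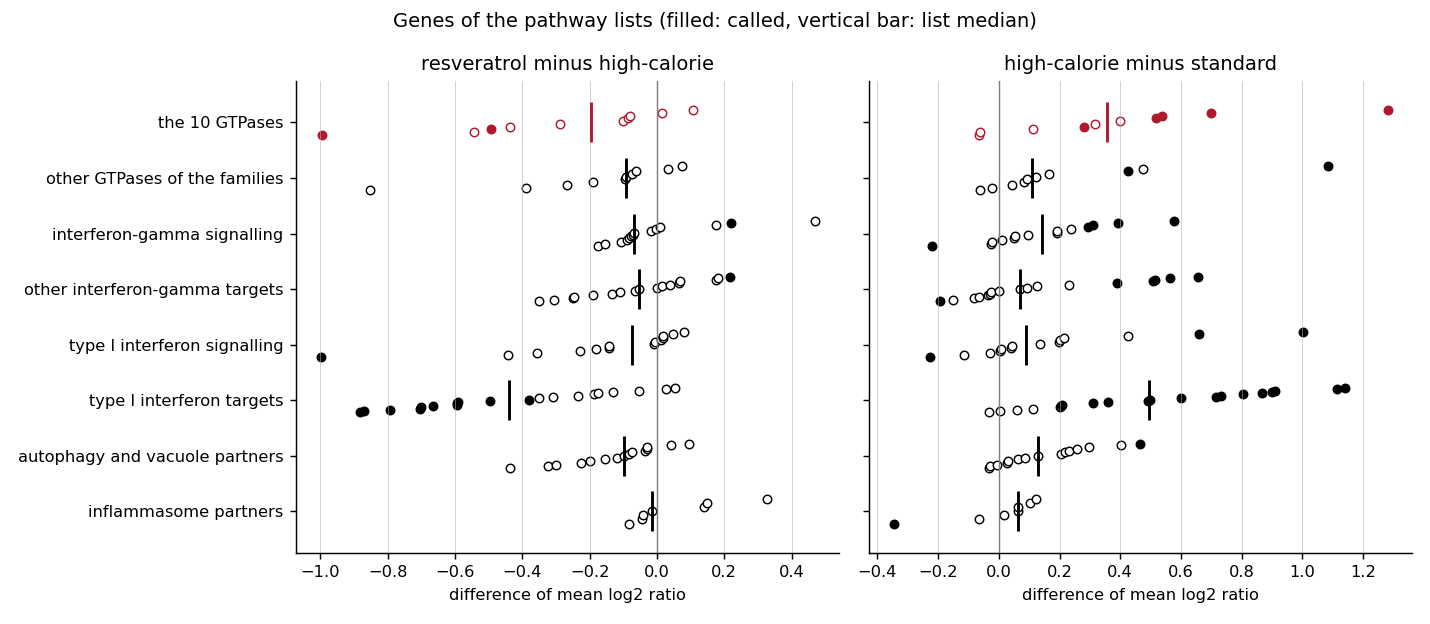
Log2 difference of each gene in the pathway lists (points) for resveratrol minus high-calorie and high-calorie minus standard diet, with the 10 GTPases in red, filled points for genes called at an adjusted p under 0.05 and a vertical bar at each list's median. The type I interferon targets lie farthest from 0, with medians of -0.44 and 0.49, beside -0.19 and 0.36 for the 10 GTPases.

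Markers of other liver cells were measured on the same arrays. Of 15 T and NK cell genes limma called none higher and 1 lower in high-calorie against standard-diet mice (Cd3d, -0.25 ± 0.07, adjusted p = 0.0368), and the mean log2 ratio of the list lay between -0.31 and -0.21 in the resveratrol mice, -0.41 and -0.30 in the high-calorie mice and -0.36 and -0.25 in the standard-diet mice. Of 15 Kupffer cell and macrophage genes 1 rose (Ctss, 1.08 ± 0.22, adjusted p = 0.00966) and none fell in high-calorie against standard-diet mice, and 1 rose in resveratrol against high-calorie mice (Csf1r, 0.28 ± 0.06, adjusted p = 0.0149). The list's mean lay between -0.88 and 0.15, -0.59 and -0.33, and -1.01 and -0.65 in the same order of diets. Resveratrol replicates 3 and 4 stood apart in that list, at -0.08 and 0.15, and in the 6 neutrophil genes, at 0.36 and -0.04, where all other mice lay between -0.51 and -0.35. Of 9 stellate cell genes 6 rose and 1 fell in high-calorie against standard-diet mice, and 4 fell in resveratrol against high-calorie mice. Among them the collagen gene Col1a2 differed by -0.61 ± 0.08 (adjusted p = 0.00397) in resveratrol against high-calorie mice and by 0.61 ± 0.08 (adjusted p = 0.000515) in high-calorie against standard-diet mice. Of 10 hepatocyte genes 3 fell on the high-calorie diet, among them Ahsg, the fetuin-A gene, by 0.74 on the log2 scale (adjusted p = 0.0207). In resveratrol against high-calorie mice Ahsg rose by 0.71 ± 0.19 (adjusted p = 0.0432) and no other was called, and the hepatocyte list's mean was 0.76 ± 0.32 in the resveratrol mice, 0.37 ± 0.17 in the high-calorie mice and 0.70 ± 0.09 in the standard-diet mice (SD). Of 10 sinusoidal endothelial genes, Cdh5 rose by 0.41 ± 0.12 (adjusted p = 0.0448) and Pecam1 by 0.22 ± 0.05 (adjusted p = 0.0243) in high-calorie against standard-diet mice. The defining markers not well above background on all arrays numbered 1 of the T and NK cell list, 2 of the Kupffer cell list and none of the stellate cell list. They also numbered 2 of the 6 neutrophil genes and 1 of the 10 sinusoidal endothelial genes. The part of these cell types in the GTPase differences was not tested.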

How the data were processed

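Per the file headers, the authors read the arrays with Agilent Feature Extraction 7.5.1, and the files give spot and local background intensity in Cy3 and Cy5 and processed signals. A second deposited table holds a score per probe, which followed log2 of the processed Cy3 signal with correlations of 0.983 to 0.985. No source used here says how the authors computed it, and it served as an alternative. Per the labels, RNA was column-purified and linearly amplified, the mouse in Cy3 and the pool in Cy5.

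Of 43790 spots per array, 2256 were controls. Spot means were background-corrected with normexp (offset 50), turned here into log2 ratios of mouse over pool and normalised by loess within each array, with controls at weight 0 and 576 outlier spots left out. Spots of a probe were averaged, and a gene took its brightest probe. Probes were named through RefSeq (GRCm38.p6), with 20852 of 41174 matched to 1 gene. Genes with Cy3 well above background on 4 or more arrays entered 1 limma 3.58.1 model of the 3 diets (R 4.3.3), adjusted by Benjamini-Hochberg over 32675 genes. Python 3.11.15, pandas 2.3.3 and matplotlib 3.10.9 served for the remaining steps.

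The members and lists were chosen with earlier results of these data known. Genes named are the 10 members, up to 4 called genes per list and comparison with the smallest adjusted p (or up to 2 where none was called), the 8 most like the members, and Ifng, Irf1, Nlrc5 and cell markers, apart from 1 item that is not reported here. Same-numbered mice deviated with correlations of -0.186 to 0.300 between diets, and nothing in the labels pairs them, so numbers were not used as pairs. Alternatives covered background correction, scaling, filters, blocks, array weights, brightness and leaving out each array. Leaving out both brightest arrays together, meaning standard-diet replicate 5 and resveratrol replicate 4, was chosen after seeing the data. High-calorie replicate 5, the brightest array of all, was kept.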

Additional observations from a re-analysis of the deposited data

Results flagged for a closer look

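In 30 groups of mice (10 genes in 3 diets), 5 held a mouse far from the others by Dixon's criterion. By chance alone that criterion flags about 1 in 20 independent groups. These groups are not independent, since the same mice recur in every gene and some of the genes correlated. No share over all genes was taken, so nothing is read from the count. Standard-diet replicate 5 was the highest of its diet for Gbp3 at a log2 ratio of -0.641 and for Gbp6 at -0.168. Standard-diet replicate 2 was the highest for Gbp2 at 0.0267 and the lowest for Gbp7 at -0.382. Resveratrol replicate 4 was the highest of its diet for Igtp at -0.113.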

How the results depend on the processing

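For high-calorie against standard-diet mice, the count of the 10 GTPases called (5) was 3 with the slide number series as a block, 2 with array brightness as a covariate, 3 within the first extraction day, 0 within the second (limma, with 3 higher at an unadjusted p under 0.05), 2 within slide series 2 and 2 of 9 from the deposited scores. The share of all genes called fell too, to 5.76%, 2.62%, 2.51%, 0.168%, 2.56% and 1.31% in these settings, in place of 9.44%. At an unadjusted p under 0.05, 27.6% of all genes passed in the main limma fit, in either direction. That share is not given for the within-day fits, so nothing is read from their unadjusted counts. The GTPase median (0.36) was 0.13 with no background correction, 0.62 from the scanner's processed signals and 0.22 with brightness. It was 0.47 without both brightest arrays, those of standard-diet replicate 5 and resveratrol replicate 4. The count over the pathway lists (31) was 20 in Cy3 alone, 14 with brightness, 12 and 0 within the first and second day (29 higher and 2 lower unadjusted on the second), 16 within slide series 2 and 12 from the scores. Leaving out 1 mouse of either diet gave 4 to 7 GTPases, medians of 0.30 to 0.47 and 18 to 41 list genes, with 18 without high-calorie replicate 5. Over those fits the share of all genes called ran from 4.22% to 18.3%.

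For resveratrol against high-calorie mice, the count of GTPases called (2) was 4 with no background correction, 1 in Cy3 alone, 4 with array weights, 0 within the first day (1 higher and 4 lower unadjusted), 0 within slide series 1 (4 lower unadjusted), 4 without both brightest arrays and 1 from the scores. The share of all genes called was 8.32%, 0.315%, 9.36%, 0.159%, 0%, 8.02% and 0.15% in these settings, in place of 5.39%. Unadjusted, 22.2% of all genes passed in the main fit, in either direction. That share is not given for the within-day and within-slide fits, so nothing is read from their unadjusted counts. The median (-0.19) was -0.36 over the 8 genes above background on all arrays. The list count (13) was 8 from processed signals, 7 with median centring, 6 in Cy3 alone, 7 with the day as a block, 22 with array weights, 1 within the first day, 0 within slide series 1 (2 higher and 23 lower unadjusted), 27 without both brightest arrays and 3 from the scores. Leaving out 1 mouse of either diet gave 2 to 4 GTPases, medians of -0.26 to -0.12 and 8 to 19 list genes, with 8 without high-calorie replicate 5 or resveratrol replicate 1. Over those fits the share of all genes called ran from 1.08% to 6.25%. Without standard-diet replicate 5, which enters through the shared spread, 4 GTPases and 20 list genes were called. The share of all genes called was then 6.7%.

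For resveratrol against standard-diet mice no GTPase or list gene was called under any alternative run, leaving out 1 mouse gave medians of 0.03 to 0.20, and the median turned to -0.000996 with brightness. With median centring Ido1 turned to 0.00373 for high-calorie against standard-diet mice, and 5 of the 8 most similar genes remained. All 8 remained when any 1 mouse was left out. With the replicate block, 6 GTPases and 34 list genes were called for high-calorie against standard diet, and 2 and 8 for resveratrol against high-calorie. The share of all genes called with that block was 8.82% and 1.25% in the same order. The cause of these shifts was not tested, and within-day and within-slide fits had fewer arrays.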
